A study of Mus musculus with 7 samples.

Results

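MOL5/6d is a cluster of mature oligodendrocytes (MOLs) from the cortex of adult mice. Its members were the cells to which the authors' deposited annotation gave that cluster name, 1441 of the 9291 cells they kept. They came from 3 libraries of sorted oligodendrocyte lineage cells (OLCs): the control dOLCs gave 569 of their 5804 cells, the control vOLCs 35 of 925 and the ectopic vOLCs 837 of 2562. Ectopic vOLCs thus gave 58.1% of the cluster, control dOLCs 39.5% and control vOLCs 2.43%.

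Mature oligodendrocytes wrap axons in myelin, a stack of membrane rich in cholesterol and galactolipids, and supply axons with metabolites. They are commonly divided into numbered classes by their transcripts. MOL5 and MOL6 are the classes typical of the grey matter, marked by Ptgds, Il33, Car2 and Grm3, whereas MOL2 is typical of white matter and spinal cord and is marked by Klk6. The authors split MOL5/6 into subclusters a to d.

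All animals were adult, at P90 (11-14 weeks), on a C57BL/6-B6CBA background, and the labels name motor and cingulate cortex as the tissue. The study's methods name the neocortex and also a step that dissected the corpus callosum, a white matter tract, so how much white matter the samples held is not settled by the sources used here. Control mice were Emx1-Cre:Sox10-GFP-TdTom. Emx1-Cre acts in progenitors of the dorsal forebrain, so dorsally derived OLCs turn on tdTom and were sorted as TdTom+ cells (control dOLCs), while ventrally derived OLCs keep GFP and were sorted as GFP+ cells (control vOLCs). Ectopic vOLCs were the GFP+ cells of mice with Emx1-Cre and Sox10-GFP-tdTom that also carried Sox10-GFP-DTA, in which diphtheria toxin fragment A kills OLCs that have met Cre, so that ventrally derived cells occupy dorsal territory. GFP+ marks cells without recombination, and whether dorsal cells that escaped Cre were among the GFP+ cells was not tested. Each condition was 1 library of cells from more than 1 mouse. The study used fewer ablated than control mice, and the mice are not told apart in the files. The control dOLC library held more kept cells than the methods say were loaded per sample, and the reason is not given in the sources used here. Ectopic vOLCs and control dOLCs differ in reporter, in the developmental origin that it marks, and in genotype together. Ectopic and control vOLCs share the reporter, and both controls share the genotype. Each pair also differs in library and depth, which cannot be told apart from the condition, so that no test between conditions was possible and every difference below is a description. The cells were clustered on these same genes, so the contrasts of MOL5/6d with other clusters are likewise descriptions.

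Unique molecular identifiers (UMIs), each counting 1 captured transcript, were summed over the cells of a cluster and library and scaled to 1000000 (CPM). For control dOLCs the sum over MOL5/6d held 3476983 UMIs, for control vOLCs 267228 and for ectopic vOLCs 6026061. Where 3 values stand in a row, they follow this order of the libraries, and where 2 do, they are control dOLCs and ectopic vOLCs. Differences are log2 ratios of CPM, and a gene was counted as higher or lower when the ratio passed 1.5-fold. Square brackets give 95% exact intervals, which cover counting error only and not the spread between mice or libraries. Among the kept cells 39 barcodes occurred in 2 libraries, and 13 MOL5/6d cells carried one of them. Whether they bear on the values was not tested.

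Of the 4 markers of MOL5/6, Ptgds and Il33 set the cluster apart from MOL2b, and Car2 and Grm3 did not. Ptgds, which encodes prostaglandin D synthase, stood at 34162, 36710 and 33596 CPM in MOL5/6d, against 8702, 15851 and 6641 in the MOL2b cells of the same libraries. Il33, a nuclear cytokine, was at 839, 834 and 1159 CPM, against 416, 383 and 555 in MOL2b and 147, 70.9 and 79.0 in oligodendrocyte precursors (OPCs). Both were higher than in MOL2b in each library, although MOL2b of control vOLCs was 6 cells, with 20 UMIs of Il33. Car2, carbonic anhydrase 2, did not set the cluster apart from MOL2b, with 7188, 7533 and 6774 CPM against 6747, 7925 and 7098. Grm3, a metabotropic glutamate receptor, was sparse, with 82.0, 52.4 and 68.5 CPM against 76.7, 153 and 77.5.

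With each cell thinned to 1000 UMIs, Il33 was seen in 53.4%, 54.3% and 61.2% of MOL5/6d cells, and in 13.2%, 8.26% and 6.67% of OPCs, which should lack it. Ptgds gave no such contrast in shares of cells, being seen in 98.9%, 95.9% and 95.2% of thinned OPCs. Car2 was seen in 99.5%, 100% and 99.6% of MOL5/6d cells and 60.7%, 52.1% and 44.2% of OPCs. Grm3 was seen in 6.33%, 2.86% and 7.89% of MOL5/6d cells and 1.52%, 2.48% and 0% of OPCs. In MOL2a cells Grm3 was seen in 8.84%, 10.1% and 11.3%, and Il33 in 25.5%, 15.1% and 21.7%. Without thinning the Il33 shares were 93.8%, 88.6% and 98.9% in MOL5/6d, at median depths of 6036, 7576 and 7160 UMIs, and 31.7%, 22.3% and 23.9% in OPCs, at 2795, 3454 and 3421.5 UMIs. Microglial, neuronal and endothelial markers were near the floor, and astrocyte and OPC markers were low but present. The 5 microglial markers summed to 0.863, 0 and 0.830 CPM and the 6 neuronal ones to 12.4, 15 and 13.4 CPM, with Cx3cr1, P2ry12 and Gad1 at 0 in all 3 libraries. The 4 endothelial markers reached 4.03, 7.48 and 1.83 CPM, with Cldn5 and Flt1 at 0. The 5 astrocyte markers summed to 127, 101 and 115 CPM, and the 5 OPC markers to 105, 71.1 and 49.3 CPM, with Pdgfra at 14.4, 11.2 and 5.64 CPM against 1450, 2174 and 1362 in OPCs.

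MOL5/6d made up a very different part of the MOL5/6 cells in each library. It held 15.1% [13.9, 16.2] of 3777 MOL5/6 cells among control dOLCs, 6.24% [4.38, 8.57] of 561 among control vOLCs and 45.4% [43.1, 47.7] of 1842 among ectopic vOLCs. Over all kept cells the shares were 9.80%, 3.78% and 32.7%, in the same order. Subcluster b held 51.5%, 42.1% and 2.28% of MOL5/6 cells, c 24.6%, 9.45% and 3.42%, and a 8.82%, 42.2% and 48.9%.

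Cells of MOL5/6d were deep, and the order of the libraries depended on depth. In control dOLCs the cluster took 0.300% of MOL5/6 cells under 3000 UMIs, 14.9% of those between 4000 and 5000, 65.4% of those between 7000 and 8000, and 48.9% of those with 8000 or more. In ectopic vOLCs the share was 11.0% under 3000 UMIs, 9.89% between 4000 and 5000, 90.1% between 7000 and 8000, and 94.4% above that. Between 5000 and 6000 UMIs the order of these libraries was turned, with 44.5% [39.4, 49.6] of 380 control dOLCs in the cluster against 36.7% [31.4, 42.3] of 316 ectopic vOLCs. Control vOLCs, the library with the most UMIs per cell in every subcluster, had 0.769% (1 of 130 cells) in that band and reached 40.0% [23.9, 57.9] only at 8000 UMIs or more. The part that depth plays in the shares was not tested.

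**Figure D1:**
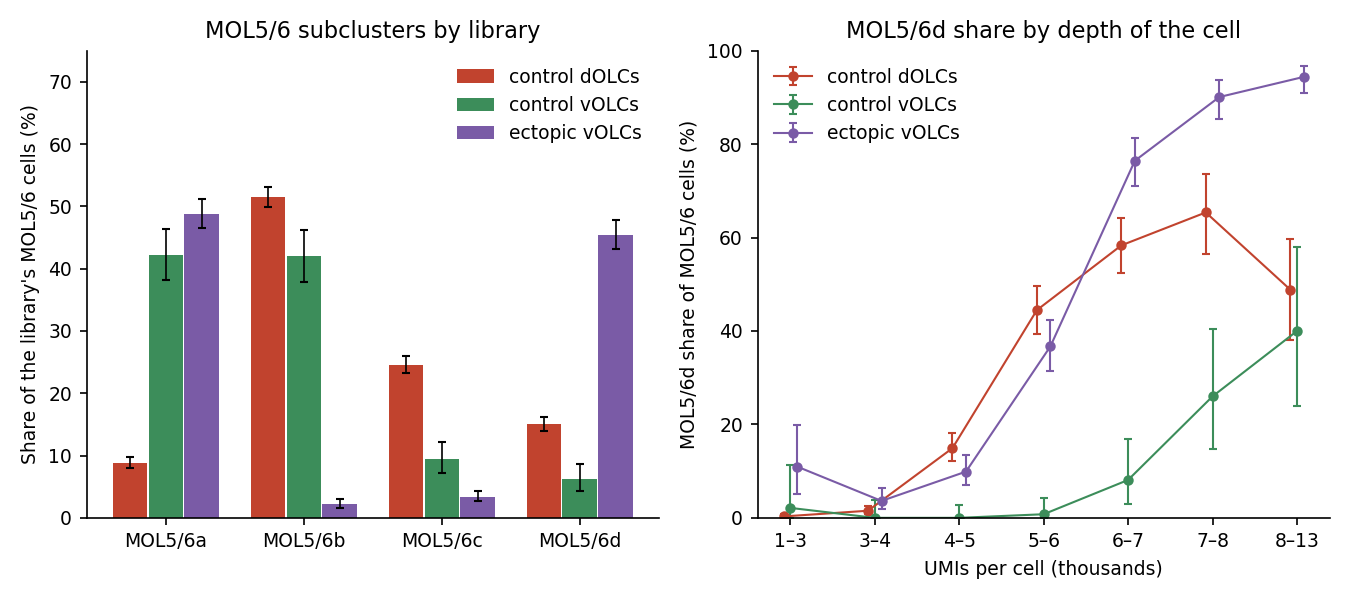
Left, share of each library's MOL5/6 cells (%) in subclusters a to d, with bars for control dOLCs, control vOLCs and ectopic vOLCs and 95% exact binomial intervals. Right, share of MOL5/6 cells annotated MOL5/6d (%) in 7 ranges of UMIs per cell: it was 44.5% in control dOLCs and 36.7% in ectopic vOLCs between 5000 and 6000 UMIs, and 65.4% and 90.1% between 7000 and 8000.

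A MOL5/6d cell had a median of 6036, 7576 and 7160 UMIs, the highest of the 4 subclusters in each library. The medians were 3910, 5584 and 4391 in a, 2844, 3970.5 and 3059 in b, and 4273.5, 7099 and 4940 in c. MOL5/6d also had the lowest share of mitochondrially encoded transcripts, with medians of 4.06%, 4.21% and 4.52% against 6.68%, 6.73% and 8.73% in a, 8.67%, 8.23% and 10.5% in b, and 5.56%, 5.29% and 6.28% in c. Genes for cytoplasmic ribosomal proteins gave 6.94%, 7.07% and 6.97% of its UMIs. That was near subcluster c (6.57%, 6.62% and 6.71%), while a (3.45%, 3.64% and 3.13%) and b (3.77%, 3.59% and 3.53%) lay well below. Nuclear genes of oxidative phosphorylation (OXPHOS) were likewise highest in d and c, at 2.31%, 2.23% and 2.37% in d, 2.07%, 1.9% and 2.09% in c, 1.60%, 1.63% and 1.45% in a, and 1.48%, 1.46% and 1.45% in b. Malat1, a long noncoding RNA held in the nucleus, ran the other way, with 6.09%, 6.16% and 7.42% in d and 10.2%, 8.36% and 12.1% in a.

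**Figure D2:**
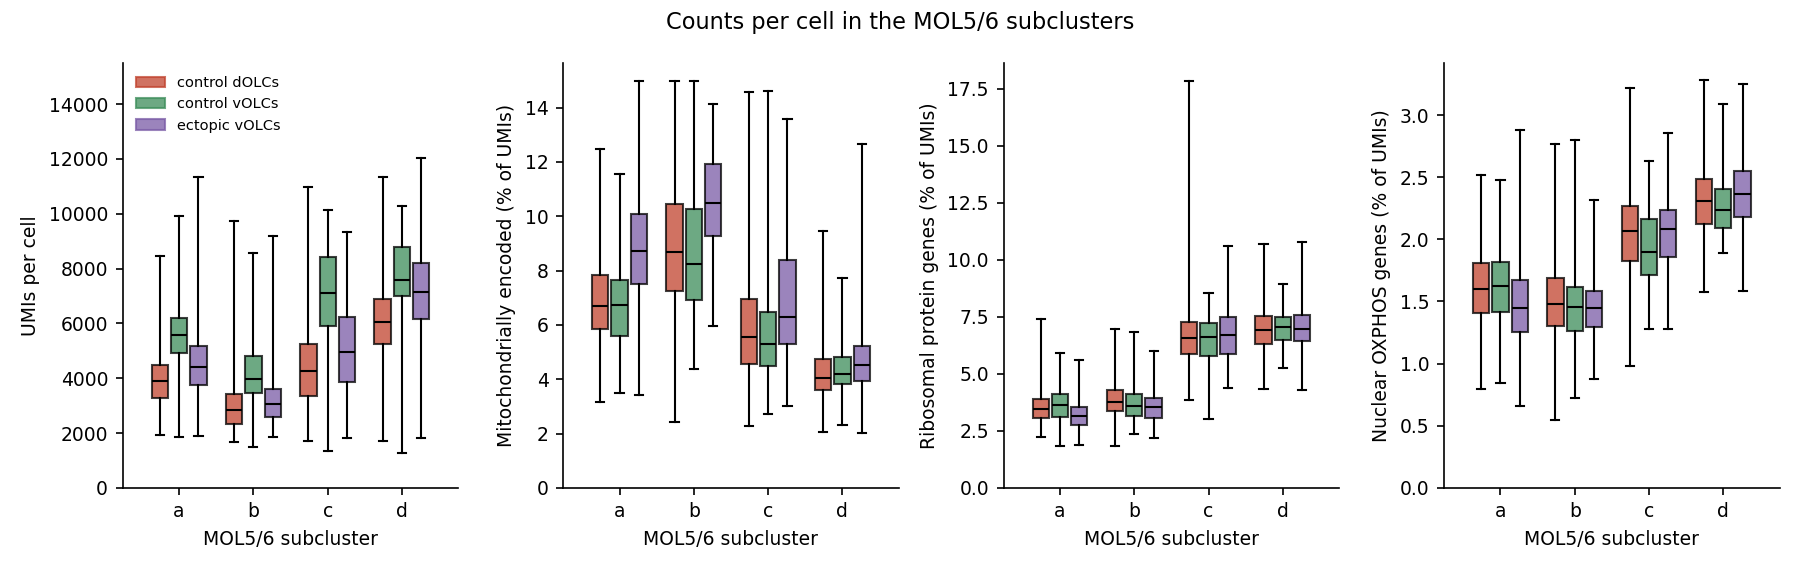
UMIs per cell and the percentage of a cell's UMIs from mitochondrially encoded genes, ribosomal protein genes and nuclear OXPHOS genes in MOL5/6 subclusters a to d, by library. Boxes span the quartiles with the median as a line, and whiskers run from the lowest to the highest cell. MOL5/6d had the highest median UMIs and the lowest median mitochondrial share in all 3 libraries, and shared its ribosomal level with c.

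Within MOL5/6d itself these measures changed little with depth. Split into 3 equal groups by UMIs, control dOLCs had median ribosomal shares of 7.25%, 6.99% and 6.52% from the shallowest to the deepest group, and ectopic vOLCs 7.32%, 6.97% and 6.73%. The mitochondrial share went from 4.35% to 3.91% in control dOLCs and from 4.61% to 4.45% in ectopic vOLCs. The nuclear OXPHOS share stayed at 2.31%, 2.31% and 2.30% in control dOLCs. Cells of MOL5/6d reached 2985, 2986 and 2997 genes in the 3 libraries, next to the limit of 3000 genes at which the authors' filter dropped cells.

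Set against all other MOL5/6 cells of its library, MOL5/6d had median ratios above 0 for ribosomal and nuclear OXPHOS genes and below 0 for mitochondrially encoded ones. In control dOLCs 5641 genes passed the filter, of which 256 (4.54%) were at least 1.5-fold higher and 289 (5.12%) lower. In ectopic vOLCs 1017 (17.5%) of 5823 were higher and 211 (3.62%) lower, and in control vOLCs, with 35 cells, 497 (13.3%) of 3734 were higher and 475 (12.7%) lower. Of the 5443 genes past the filter in both control dOLCs and ectopic vOLCs, 189 were higher in both, 20 lower in both and 3 past the fold in opposite directions. The split of calls moved with the scaling. The share of calls that were higher in control dOLCs was 47.0%, 59.7% with edgeR's TMM factors, 65.0% with DESeq2 size factors, 69.3% after thinning and 12.6% with totals that left out mitochondrially encoded genes and Malat1. In ectopic vOLCs it was 82.8%, 72.1%, 71.9%, 78.8% and 59.4%.

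The ribosomal protein genes stood out by number. Of 81 past the filter, 37 were higher in control dOLCs (median log2 ratio 0.57) and 74 in ectopic vOLCs (1.09), 37 of them in both, and none was lower. Control vOLCs gave 68 of 81 and a median of 0.84. Over all genes tested the medians were 0.04, 0.15 and 0.02. Of the nuclear OXPHOS genes, which encode subunits of the respiratory chain and ATP synthase, 11 of 74 were higher in control dOLCs (0.43) and 44 of 75 in ectopic vOLCs (0.68), where 1 was lower. In contrast, all 12 mitochondrially encoded genes past the filter, which encode subunits of the same complexes, were lower in both libraries, with medians of -0.81 and -0.86. None of these 3 medians changed sign under another scaling, thinning or the band of 5000 to 6000 UMIs. In control dOLCs the ribosomal and OXPHOS counts moved in both directions. They were 47 of 81 and 16 of 74 with TMM, 51 and 18 with size factors, and 12 and 2 with totals that left out mitochondrially encoded genes and Malat1, where ectopic vOLCs had 68 of 81 and 36 of 75. Over all 5641 genes of control dOLCs, 347 were higher with TMM, 388 with size factors and 81 with those totals. Of the 5823 genes of ectopic vOLCs, 652 were higher with those totals. The mitochondrial count was 11 or 12 of 12 in both libraries under each of these scalings.

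Of the 10 named genes with the highest ratio in both libraries, 4 were on the ribosomal list. Rpl35, Rpl10 and Rps3a1, which encode ribosomal proteins, were at 399, 977 and 952 CPM in MOL5/6d of control dOLCs and at 408, 999.8 and 1093 CPM in ectopic vOLCs. Their log2 ratios were 0.81, 0.79 and 0.76 in control dOLCs and 1.39, 1.35 and 1.22 in ectopic vOLCs. Rps27l, a paralog of a ribosomal protein, had ratios of 0.87 and 1.31. The predicted gene Gm9493, whose reads may be shared with a ribosomal protein gene and whose value is therefore uncertain, had 1.01 and 1.48.

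The rest of the highest genes were on none of these 3 lists, and Hmgn2 and Grb14 ranked first. Hmgn2, a nucleosome-binding protein, stood at 145.5, 232 and 172 CPM in MOL5/6d against 72.9, 93.5 and 70.2 in the other MOL5/6 cells, ratios of 1.00 [0.84, 1.16], 1.31 and 1.30 [1.11, 1.48]. Grb14, an adaptor of the insulin receptor, was at 760, 778 and 885 CPM against 431, 373 and 337. Tmsb4x, which binds actin monomers, was at 4209, 4363 and 4640 CPM against 2531, 1966 and 1623, with ratios of 0.73 [0.70, 0.76] in control dOLCs and 1.52 [1.48, 1.55] in ectopic vOLCs. Each of these genes was higher in MOL5/6d in all 3 libraries. Rnf7, a subunit of cullin ubiquitin ligases, had the steadiest ratio, with 0.76, 0.70 and 0.77. Cystm1 had 0.79, 0.67 and 0.96.

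All 10 lowest genes by the rank of the interval end were mitochondrially encoded. So were 12 of the 20 genes at least 1.5-fold lower in both libraries. The first of the 10, mt-Nd1, encodes a subunit of respiratory complex I. It stood at 4089, 4176 and 4640 CPM in MOL5/6d against 7548, 7253 and 9000 in the other MOL5/6 cells. Its log2 ratios were -0.88, -0.80 and -0.96. The others were mt-Atp6 (-0.84 in control dOLCs and -0.96 in ectopic vOLCs), mt-Cytb (-0.85 and -0.94), mt-Co3 (-0.79 and -0.89), mt-Co2 (-0.80 and -0.83), mt-Nd4 (-0.80 and -0.90), mt-Nd2 (-0.79 and -0.90), mt-Co1 (-0.76 and -0.79), mt-Nd3 (-0.84 and -0.78) and mt-Atp8 (-0.86 and -0.81). They cover complexes I, III and IV and ATP synthase.

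Because the other MOL5/6 cells were mostly b and c in control dOLCs but mostly a in ectopic vOLCs, MOL5/6d was also set against single subclusters. Against MOL5/6a, 808 (15.9%) of 5092 genes were higher and 239 (4.69%) lower in control dOLCs, and 1192 (20.5%) of 5823 higher and 259 (4.45%) lower in ectopic vOLCs. With this partner the medians of the libraries lay closer for the ribosomal and OXPHOS lists and farther apart for the mitochondrial one. The ribosomal list had 73 of 81 higher in control dOLCs (median 1.05) and 74 of 81 in ectopic vOLCs (1.23), and the nuclear OXPHOS list 36 of 74 (0.58) and 45 of 75 (0.76), where 1 was lower. Of 12 mitochondrially encoded genes 11 were lower in control dOLCs (-0.69) and 12 in ectopic vOLCs (-0.88). The share of calls that were higher was 77.2% and 82.2%, and 57.2% and 61.3% with totals that left out mitochondrially encoded genes and Malat1. TMM moved all ratios by -0.04 and -0.12.

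Lists of lipid and lysosomal genes had medians below 0 against MOL5/6a in both libraries. Beside the counts that follow, 4.69% and 4.45% of all genes were lower and 15.9% and 20.5% higher. Of 19 lysosomal genes 7 were lower in control dOLCs (median -0.49) and 9 in ectopic vOLCs (-0.52), with none higher. Examples were Lamp1, a lysosomal membrane protein (-0.60 and -0.75), and Ctsd, the protease cathepsin D (-0.70 and -0.84). Of the sphingolipid and galactolipid genes, 6 of 14 were lower in control dOLCs (-0.47) and 8 of 16 in ectopic vOLCs (-0.57), where 1 was higher, among them Cers2, the ceramide synthase for very long acyl chains (-0.76 and -0.68). For cholesterol synthesis the counts were 7 of 19 (-0.51) and 4 of 19 (-0.29, with 1 higher), the latter 8 lower and 0 higher with TMM, including Dhcr7 (-0.76 and -0.66) and Msmo1 (-0.83 and -0.68). Of 12 fatty acid synthesis genes 2 were lower in each library (-0.19 and -0.16), among them Elovl5, which elongates fatty acids, with -0.85 and -1.0.

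Against MOL5/6a more myelin genes were lower than higher, with medians below 0. Of 17 past the filter, 1 was higher and 3 were lower in control dOLCs (median -0.27), and 2 were higher and 4 lower in ectopic vOLCs (-0.19). Over all genes 15.9% and 20.5% were higher and 4.69% and 4.45% lower. With size factors or with totals that left out mitochondrially encoded genes and Malat1, 0 were higher and 4 lower in control dOLCs. Mobp, a protein of compact myelin, had ratios of 0.63 [0.56, 0.70] and 0.80 [0.76, 0.85], and Mbp, the main protein of the cytoplasmic face of compact myelin, had 0.26 and 0.42. Mag, which faces the axon, was lower (-0.65 [-0.69, -0.61] and -0.90 [-0.93, -0.88]), as was the tetraspanin Cd9 (-0.83 and -0.80). Of 6 iron genes 1 was higher and 1 lower in control dOLCs, and 2 were higher and 1 lower in ectopic vOLCs (1 and 1 with TMM). Fth1, the ferritin heavy chain that stores iron, was at 22236 CPM in control dOLCs and 21536 in ectopic vOLCs, with ratios of 0.83 and 1.06, whereas Trf, transferrin, which oligodendrocytes secrete, had -0.76 and -0.91. Stmn1, which destabilizes microtubules, had 1.08 and 1.38.

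MOL5/6c was the subcluster that resembled MOL5/6d in ribosomal genes, and other genes separated them. Against c, 133 (2.32%) of 5730 genes were higher and 523 (9.13%) lower in control dOLCs, and 833 (14.6%) of 5689 higher and 858 (15.1%) lower in ectopic vOLCs, where c had 63 cells. None of 81 ribosomal genes passed the fold in either library (medians 0.10 and 0.12), although 4 did so in ectopic vOLCs with TMM or size factors. Mitochondrially encoded genes kept a lower median (-0.44 and -0.49), with 0 and 2 of 12 past the fold, the latter 0 with TMM or size factors and 4 with totals that left out mitochondrially encoded genes and Malat1. Nuclear OXPHOS genes had 1 of 74 and 5 of 75 higher, the latter 15 with TMM. The share of calls that were higher was 20.3% and 49.3%, and it was 30.3% and 66.9% with TMM and 9.75% and 39.8% with totals that left out mitochondrially encoded genes and Malat1. TMM moved all ratios by 0.04 and 0.14.

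Single genes lower in MOL5/6d than in c included Slc12a2, Nfasc and Scd2. Slc12a2, a sodium, potassium and chloride cotransporter, stood at 421, 348 and 309.7 CPM in MOL5/6d, against 715, 657 and 758 in c. Nfasc, neurofascin, which anchors the paranodal loops, was at 252, 243 and 189 CPM against 425, 410 and 374. Scd2, a stearoyl-CoA desaturase, was at 2558, 2298 and 1741 CPM against 4490, 4670 and 4205. In each of the 3 libraries these genes were lower in d than in c, with ratios of -0.76 and -1.29 for Slc12a2, -0.76 and -0.99 for Nfasc and -0.81 and -1.27 for Scd2 in control dOLCs and ectopic vOLCs.

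Of the lists that hold them, ion channels and transporters had 1 of 8 lower in each of these libraries, which is near the 9.13% and 15.1% over all genes. There were 5 of 14 axoglial adhesion genes lower in each library (medians -0.28 and -0.43), Hapln2 being higher in ectopic vOLCs (0.72). Of 13 lineage transcription factors 3 were lower in control dOLCs (-0.48) and 4 in ectopic vOLCs (-0.32), Tcf7l2, a factor of newly forming oligodendrocytes, with -0.69 and -1.06. Of 12 fatty acid synthesis genes 2 were lower in control dOLCs and 3 in ectopic vOLCs (-0.18 and -0.35), beside 9.13% and 15.1% over all genes, among them Fasn, fatty acid synthase, with -0.82 and -1.05. Genes of sphingolipids and galactolipids had 1 of 15 lower in control dOLCs and 3 of 16 higher in ectopic vOLCs, near the 14.6% over all genes, or 2 higher and 2 lower with totals that left out mitochondrially encoded genes and Malat1. Against a, by contrast, Slc12a2 (0.12 and 0.15), Nfasc (0.09 and 0.10) and Scd2 (0.01 and -0.07) were close to level, although other members of their lists were lower. There were 3 of 13 and 4 of 14 axoglial genes lower than in a, and 2 of 8 ion channels and transporters in ectopic vOLCs, beside 4.69% and 4.45% over all genes. Tppp, which promotes tubulin polymerization, was lower than in c (-0.82 and -0.95) and higher than in a (0.48 and 0.62).

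**Figure D3:**
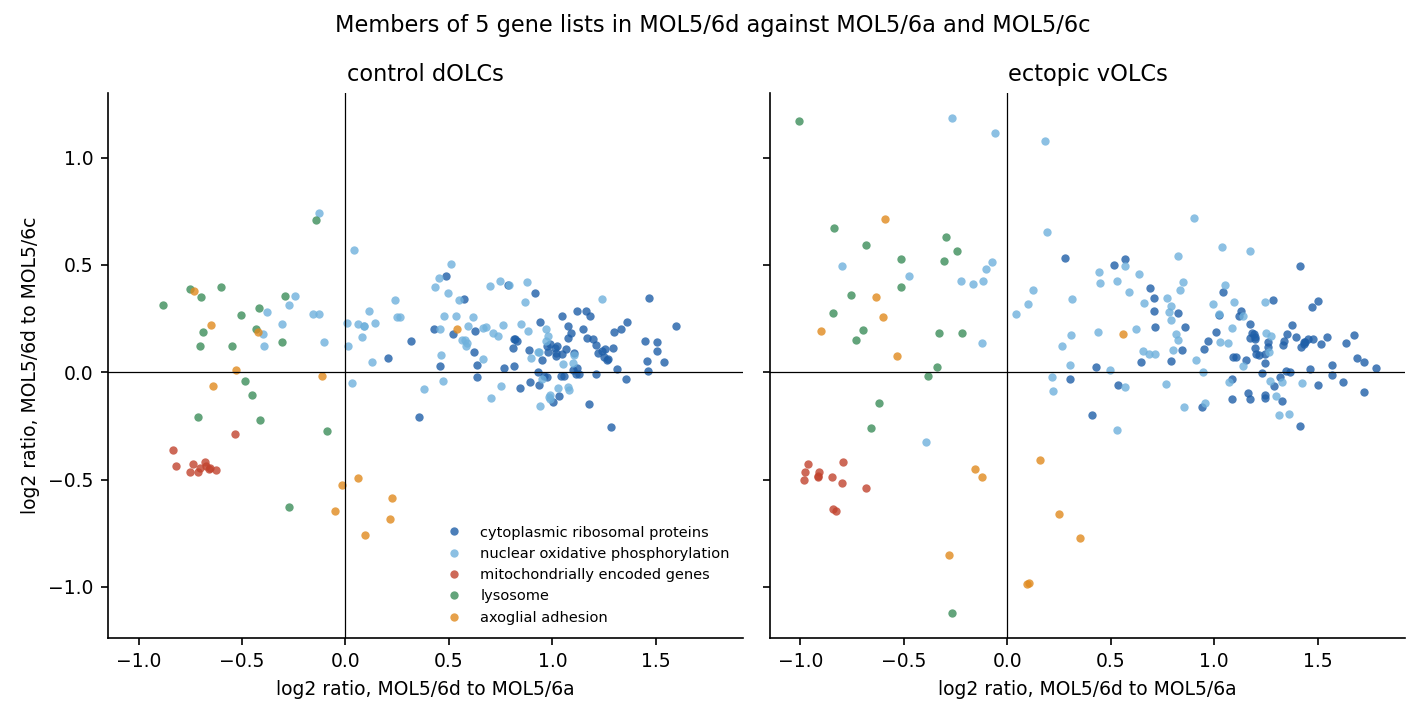
Each point is a gene of 1 of 5 lists, with its log2 ratio of MOL5/6d to MOL5/6a on the horizontal axis and to MOL5/6c on the vertical axis, in control dOLCs (left) and ectopic vOLCs (right). Ribosomal genes lay to the right and near 0 on the vertical axis (medians 1.05 and 0.10 in control dOLCs), mitochondrially encoded genes at the lower left (-0.69 and -0.44), and lysosomal genes to the left.

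Antigen presentation genes, sparse in all clusters, were higher in d than in c for 1 of 5 in control dOLCs (median 0.44) and 3 of 5 in ectopic vOLCs (0.62), beside 2.32% and 14.6% over all genes. With totals that left out mitochondrially encoded genes and Malat1 the counts were 0 and 2. Against a the list ran the other way, with 2 of 5 lower in control dOLCs (-0.51) and 0 of 5 in ectopic vOLCs (-0.49), or 3 of 5 there under each of the other scalings. B2m, the light chain of MHC class I, was at 52.9 and 55.1 CPM in MOL5/6d of control dOLCs and ectopic vOLCs against 34.7 and 31.2 in c. The latter rests on 10 UMIs, and the log2 ratios were 0.61 [0.29, 0.94] and 0.82 [-0.08, 1.9].

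Transcript length went with these contrasts in part. Genes were split into 3 equal groups by length. In control dOLCs the shortest group, with a median transcript of 1648 bases, had a median ratio of MOL5/6d to the other MOL5/6 cells of 0.28, with 185 higher and 16 lower. The longest group, at 5654 bases, had -0.26, with 22 higher and 231 lower. In ectopic vOLCs the 3 groups, from short to long, had 0.32, 0.09 and 0.08. Against c the longest group had a median below 0 in both libraries (-0.33 and -0.36), while against a it was at 0.08 and 0.15. The part that length plays was not tested.

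Depth was matched by taking cells with 5000 to 6000 UMIs alone, an alternative chosen after the values had been seen. In control dOLCs this left 169 MOL5/6d and 211 other MOL5/6 cells, with medians of 5509 and 5364 UMIs. The ribosomal median was then 0.36, the nuclear OXPHOS median 0.25 and the mitochondrial median -0.49. In ectopic vOLCs, with 116 and 200 cells at 5641.5 and 5388.5 UMIs, the same medians were 1.17, 0.61 and -0.70. All 3 kept their sign in both libraries, and in control dOLCs all were smaller than without matching. The band may also change the mix of subclusters among the other cells. In control dOLCs the upper quartile was 3414 UMIs in b and 5264 in c. At matched depth 4 of 80 ribosomal, 2 of 73 nuclear OXPHOS and 0 of 12 mitochondrially encoded genes passed the fold in control dOLCs, while in ectopic vOLCs 75 of 80, 38 of 73 and 10 of 12 did so in the direction of the median. Over all genes in the band, 101 of 2918 were higher and 101 lower in control dOLCs. In ectopic vOLCs 555 of 2322 were higher and 187 lower.

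Over 2872 genes the correlation of MOL5/6d was higher with MOL2b than with the other MOL5/6 subclusters, a comparison taken up after its values had been seen. The Spearman correlation of CPM across genes, given as a description of 2 sums from 1 library, was 0.962 with MOL2b in control dOLCs and 0.962 in ectopic vOLCs. With MOL1 it was 0.921 and 0.955, the latter close to the value of MOL2b and above those of the MOL5/6 subclusters. With c it was 0.940 and 0.892, with a 0.913 and 0.897, with b 0.902 and 0.809, and with OPCs 0.512 and 0.437. MOL5/6d of control dOLCs and of ectopic vOLCs correlated at 0.977 with each other. MOL2b was the deeper of the 2 clusters, with medians of 7168 UMIs in control dOLCs and 8292 in ectopic vOLCs, and had mitochondrial shares of 3.66% and 4.02% and ribosomal shares of 6.25% and 6.16%. The part that depth plays in the correlations was not tested.

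MOL5/6d and MOL2b were close in the ribosomal, mitochondrial and OXPHOS lists and differed in some MOL5/6 and MOL2 markers and in genes of other lists. In control dOLCs 128 (2.39%) of 5349 genes were higher in MOL5/6d and 244 (4.56%) lower, and in ectopic vOLCs 315 (5.35%) of 5891 higher and 317 (5.38%) lower. None of 81 ribosomal, 12 mitochondrially encoded or 74 and 75 nuclear OXPHOS genes passed the fold, apart from 1 mitochondrially encoded gene in ectopic vOLCs with each of the 3 other scalings. The share of calls that were higher was 34.4% and 49.8%, and 48.1% and 66.6% with TMM. Ptgds was higher in MOL5/6d by 1.97 [1.95, 2.00] and 2.34 [2.30, 2.38] and Il33 by 1.01 and 1.06 on the log2 scale. Antigen presentation genes had 1 of 5 higher in control dOLCs (median 0.11) and 3 of 5 in ectopic vOLCs (0.87). Opalin, a membrane protein of oligodendrocytes, was at 1912 and 2171 CPM against 1038 and 1312 (0.88 and 0.73), Cd63, a tetraspanin of late endosomes, had 0.87 and 0.91, and Fads1, a fatty acid desaturase, 1.11 and 1.15.

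Genes lower in MOL5/6d than in MOL2b included the MOL2 markers. Klk6, a secreted serine protease, was at 15.5 and 18.9 CPM in MOL5/6d of control dOLCs and ectopic vOLCs against 280 and 178 in MOL2b, and Anxa5, annexin A5, at 42.9 and 37.5 CPM against 99.5 and 99.5. Enpp6, a marker of newly formed oligodendrocytes, had ratios of -2.91 and -3.81. Anln, anillin, which helps to assemble septins in myelin, had -1.53 and -1.39, and Hapln2, a link protein of the perinodal matrix, -0.92 and -1.0. All of these had the same direction in both libraries.

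**Figure D4:**
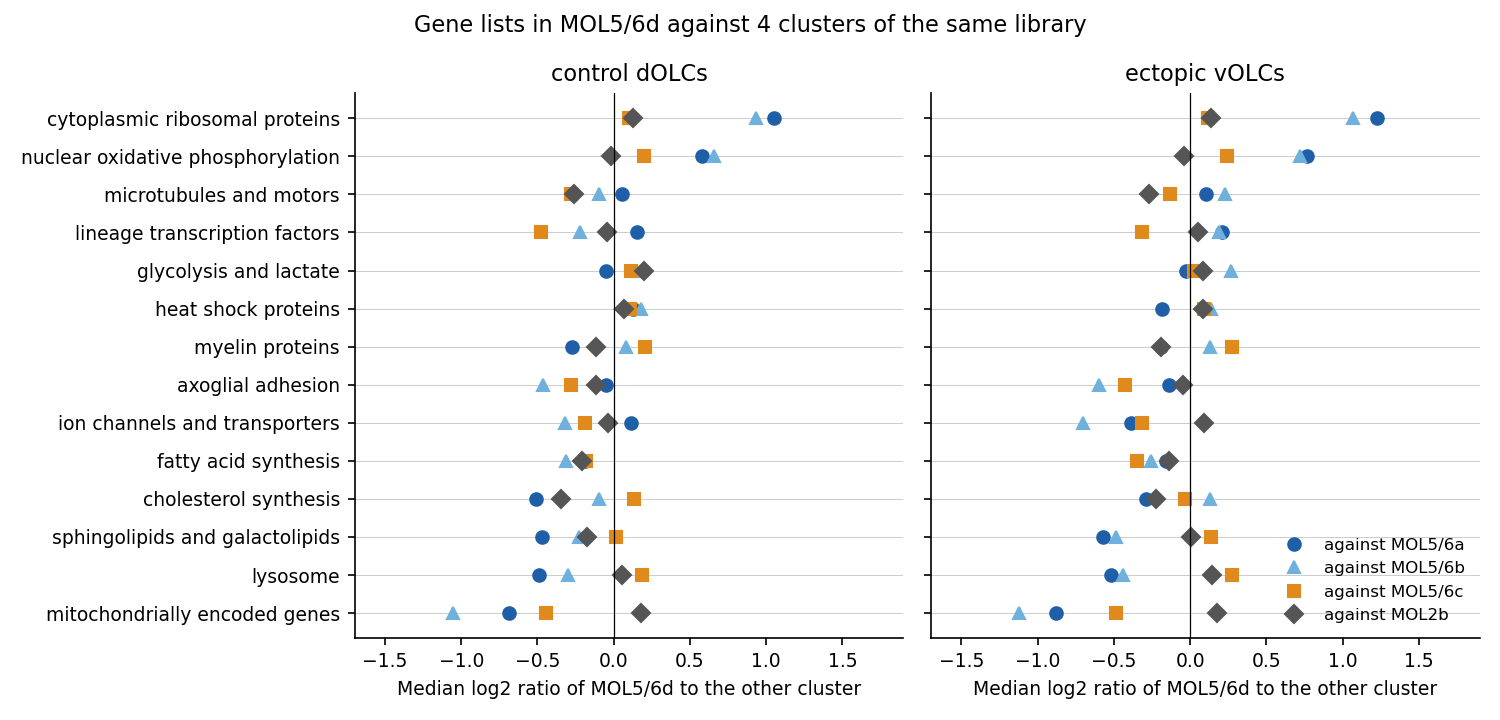
Median log2 ratio of MOL5/6d to MOL5/6a, b, c and MOL2b over the members of 14 gene lists, in control dOLCs (left) and ectopic vOLCs (right). Ribosomal genes were near 1 against a and b and near 0 against c and MOL2b, and mitochondrially encoded genes were below 0 against a, b and c (-0.69, -1.05 and -0.44 in control dOLCs) and above 0 against MOL2b (0.18).

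Within MOL5/6d, ectopic vOLCs and control dOLCs differed in few genes past the fold. Of 6006 genes 69 (1.15%) were at least 1.5-fold higher in ectopic vOLCs and 198 (3.3%) lower, and the median over all genes was -0.05. Of the calls 25.8% were higher, 44.4% with TMM and 45.9% with DESeq2 size factors. MOL5/6d cells were deeper in ectopic vOLCs (7160 against 6036 UMIs), and the longest of the 3 length groups had a median of -0.17, with 16 higher and 120 lower. The 35 control vOLCs served as a second reference for named genes. Controls and ectopic cells are the same 3 libraries in every cluster, so values in MOL5/6a are set beside those in MOL5/6d and are no independent support.

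Genes were ranked by the end of the interval nearest to 0 against control dOLCs, among those with the same sign against both controls, so that this agreement in sign was fixed by the choice. First by this rank was Tubb3, a beta-tubulin known mainly from neurons. It was at 9.49, 11.2 and 94.6 CPM in MOL5/6d, from 33, 3 and 570 UMIs. Its log2 ratio was 3.32 [2.81, 3.87] against control dOLCs, and 3.37 in MOL5/6a. The neuronal markers stayed at 12.4 and 13.4 CPM in these 2 libraries. Arhgap15, a GTPase-activating protein for Rac, stood at 2.01, 7.48 and 28.0 CPM, with a ratio of 3.8 [2.73, 5.14] against control dOLCs and of 1.91 [0.03, 4.96] against control vOLCs, where it had 2 UMIs.

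Magi1, a junctional scaffold protein, was at 42.3, 33.7 and 156 CPM (1.88 [1.63, 2.14] against control dOLCs, and 1.77 in MOL5/6a). Npsr1, the neuropeptide S receptor, was at 33.7, 29.9 and 109 CPM (1.69, and 1.98 in MOL5/6a). In both, the control libraries lay close to each other, although control vOLCs were 35 cells with few UMIs of either gene. Polr2f, a subunit shared by the RNA polymerases whose gene lies beside Sox10, was at 243, 374 and 567 CPM (1.22 [1.11, 1.33], and 0.90 in MOL5/6a), and control vOLCs lay between the others. The rest of the 10 highest were RP23-407N2.2 (2.47), Cdk5rap1 (2.59), Cyp2j12 (1.16), Cd200 (1.45) and Rpe (1.31).

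Of the genes with the lowest ratio, Eya2, a transcriptional cofactor with phosphatase activity, was at 60.97, 86.1 and 0.996 CPM, from 212, 23 and 6 UMIs. In MOL5/6d the ratio came to -5.94 [-7.40, -4.79], beside -4.29 in MOL5/6a. Dlk2 stood at 35.4, 22.5 and 2.99 CPM (-3.57, and -2.84 in MOL5/6a), and Hddc3 at 91.7, 105 and 20.6 CPM (-2.16, and -1.53 in MOL5/6a). In ectopic vOLCs Dlk2 rested on 18 UMIs. Neat1, the noncoding RNA that builds paraspeckles, was at 305, 326 and 153 CPM (-1.0, and -0.81 in MOL5/6a). Gm10260 had the lowest ratio (-6.01), but it is nearly identical to Rps18, and the 2 genes summed gave -0.07 [-0.14, 0.00]. The rest were Rab6b (-1.48), Erdr1 (-1.63), Fam189a2 (-1.59), Bricd5 (-1.43) and Gm12166 (-1.21). Tppp was at 257, 333 and 145 CPM (-0.83 [-0.97, -0.69], and -0.97 in MOL5/6a).

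**Figure D5:**
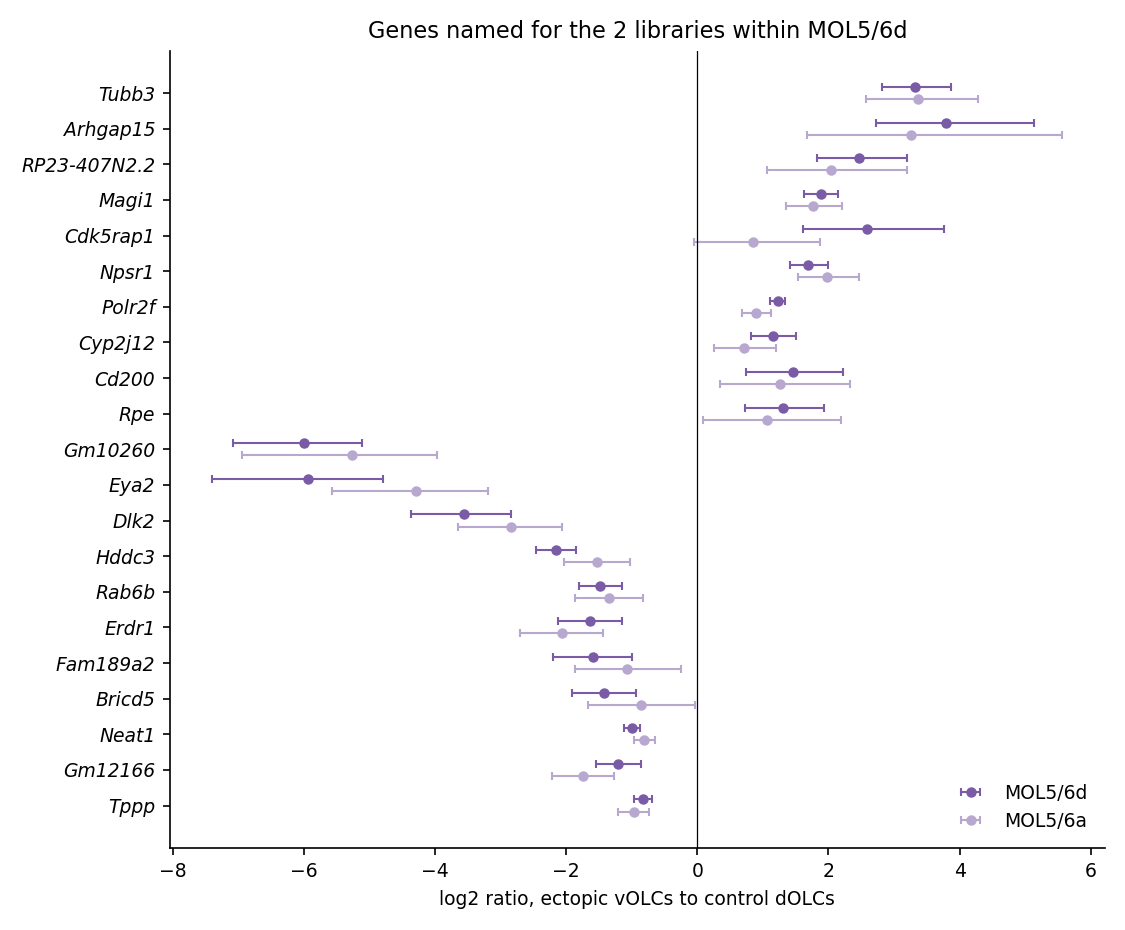
Ectopic vOLCs over control dOLCs (log2 ratio) for the genes named by the rule and Tppp, within MOL5/6d and, beside it, within MOL5/6a, with 95% exact intervals for counting error. Tubb3 was at 3.32 and 3.37 and Eya2 at -5.94 and -4.29, and each gene had the same sign in both subclusters.

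Between ectopic vOLCs and control dOLCs within MOL5/6d the ribosomal, OXPHOS and mitochondrial lists differed little. None of 81 ribosomal genes passed the fold (median 0.03), none of 75 nuclear OXPHOS genes (0.03) and none of 12 mitochondrially encoded genes (0.21), against 1.15% higher and 3.3% lower over all genes. With TMM, size factors or thinning 2 of the 12 mitochondrially encoded genes were higher in ectopic vOLCs, and 3 were in the band of 5000 to 6000 UMIs. The 17 myelin genes had no member past the fold (0.10), and the same held for the 19 genes of cholesterol synthesis (0.10), 16 of sphingolipids and galactolipids (-0.03, and 0.05 with TMM), 14 of axoglial adhesion (-0.12) and 19 of the lysosome (-0.17). In fatty acid synthesis 1 of 12 was lower, Acly, ATP citrate lyase, with -0.72 against control dOLCs but 0.20 against the 11 UMIs of control vOLCs. The median of this list was -0.17.

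In the list of antigen presentation and reactive genes 2 of 5 members past the filter were higher in ectopic vOLCs, beside 1.15% over all genes. They were the MHC class I genes H2-D1, at 28.5, 15 and 48.0 CPM (0.75 [0.42, 1.10]), and H2-K1, at 26.2, 26.2 and 43.1 CPM (0.72 [0.37, 1.08]). In MOL5/6a their ratios were 0.39 and 1.09. For both genes the value in control vOLCs comes from 35 cells and so from few UMIs. Il33 had 0.47 [0.40, 0.53] in MOL5/6d and 0.48 in MOL5/6a, short of the fold in both. Nkx2-2, a lineage transcription factor, had 0.81 [0.46, 1.17] in MOL5/6d and 0.40 [-0.28, 1.15] in MOL5/6a, and against control vOLCs 0.14 in MOL5/6d. The AMPA receptor subunit Gria2 had -0.94 [-1.32, -0.56] against control dOLCs but 0.33 [-1.07, 2.23] against control vOLCs, where it had 4 UMIs, and so the references did not place it on the same side.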

How the data were processed

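The authors deposited UMI counts per gene and cell without normalization, with an annotation giving each kept cell's library and cluster. Per the processing notes they used Cell Ranger 2.1.1, the mm10 genome and Seurat (3 and 4.0), and their filter kept cells with over 200 and under 3000 genes and at most 15% mitochondrial counts. Kept cells held 1257 to 12180 UMIs. The 4 P0 samples were not analysed here.

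Counts were summed over cells by cluster and library and scaled to CPM. Genes needed 100 UMIs in both sums together and a UMI in 10% of the cells of 1 of them. Ratios carry exact conditional binomial intervals and shares Clopper-Pearson intervals. The cells, lists and rules were chosen with earlier results of these data known. Named were the 10 highest and 10 lowest genes by the interval end nearest to 0, of the same sign in control dOLCs and ectopic vOLCs (cluster) or against both controls (condition), the 4 markers, Tubb3, Eya2, Tppp and members of 31 gene lists. Genes in likeness values had a mean of 50 CPM or more.

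Alternatives were edgeR 4.0.16 TMM factors, DESeq2 1.42.0 size factors, no filter, mean CPM over cells, thinning to 1000 UMIs, leaving out the 5% of cells with most UMIs (no doublets were otherwise removed), a 10% mitochondrial limit, other partners, and, added after the data were seen, a 5000 to 6000 UMI band and totals without mitochondrially encoded genes and Malat1. Both packages gave factors only, and no test was run. The steps were checked on simulated data. Python 3.11.15, numpy 2.4.6, scipy 1.17.1, pandas 2.3.3, matplotlib 3.10.9 and R 4.3.3 were used.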

Additional observations from a re-analysis of the deposited data

How the results depend on the processing

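No paired analysis was possible because a condition has a single library and so no replicate numbers to pair. The number of genes past the fold depended on the setting. In control dOLCs, 256 genes were higher in MOL5/6d than in the other MOL5/6 cells, but 388 with size factors, 1714 with no filter, 403 with mean CPM, 808 against MOL5/6a alone, 101 in the 5000 to 6000 UMI band and 81 with totals lacking mitochondrially encoded genes and Malat1. The 289 lower genes became 4140 with no filter, 112 when thinned, 101 in the band and 561 with those totals. In ectopic vOLCs, 1017 higher genes became 3601 with no filter, 454 when thinned, 555 in the band and 652 with those totals, and 211 lower genes became 2174, 122 (thinned) and 445 (totals). Between libraries within MOL5/6d, 69 higher genes became 105 with size factors, 2050 with no filter, 20 when thinned, 30 in the band and 735 with control vOLCs as control, and 198 lower genes became 129 with TMM, 124, 2837, 46, 69 and 657. The cause of these shifts was not tested. The share of MOL5/6 cells in MOL5/6d moved in control dOLCs from 15.1% to 18.1% with at most 10% mitochondrial counts, 13.7% without the deepest cells, 9.80% over all kept cells and 44.5% in the band. In control vOLCs it moved from 6.24% to 3.78% over all kept cells and 0.769% in the band. In ectopic vOLCs it moved from 45.4% to 53.2% with at most 10% mitochondrial counts, 32.7% over all kept cells and 36.7% in the band. Eya2 in MOL5/6d against the other MOL5/6 cells of ectopic vOLCs went from -0.99 to 0.26 when thinned, on 6 UMIs in MOL5/6d before thinning.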
